A study of Mus musculus with 10 samples.

Results

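Iron, heme and metal handling genes were followed in mouse hepatocytes under hypoxia, with and without HIF-1alpha, the oxygen-regulated subunit of hypoxia-inducible factor 1. The set holds 8 genes: Tfrc, Hmox1, Hamp, Trf, Fth1, Cp, Mt1 and Mt2. Every probe set whose symbol in the platform annotation is one of these names was taken, which gave 12 of the 12488 probe sets of the array. They cover 7 of the 8 genes. No probe set carries the symbol Trf (transferrin, the plasma iron carrier), so that gene was not analysed here. Of the 12 probe sets, 3 are array control probe sets of Tfrc, and 8 of the other 9 were bright enough to be tested.

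Total RNA was hybridised to 10 oligonucleotide arrays, 1 per sample. The groups are 3 samples of hypoxic HIF-1alpha null hepatocytes, 3 of hypoxic adeno-treated wild-type hepatocytes, 2 of normoxic adeno-treated hepatocytes and 2 of normoxic untreated hepatocytes. The labels number the samples 1 to 3 in the hypoxic groups and 1 to 2 in the normoxic ones. No normoxic null group is among them, so null and wild type were compared in hypoxia only. The sources used here do not give the adeno vector, how HIF-1alpha was removed, any adeno treatment of the null cells, the normoxic cells' genotype, or the level and length of hypoxia. Nothing says that the samples of a group are separate cultures or animals, so each p-value measures only the spread between these arrays.

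Hepatocytes are a main iron store of the body and the source of the plasma proteins that carry and oxidise iron. Iron bound to transferrin enters through the transferrin receptor, is held in ferritin and is carried out by ferroportin, which the hormone hepcidin closes. Ceruloplasmin oxidises iron as it leaves cells, heme oxygenase frees iron from heme, and metallothioneins bind zinc and copper. The genes of transferrin, its receptor, ceruloplasmin and heme oxygenase 1 are textbook targets of hypoxia-inducible factors, while hepcidin is known to fall in hypoxia in the living animal.

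The deposited values are scaled intensities on a linear scale. Each was tested as log2 of the value plus 4.7 in a limma fit across 7453 probe sets, with a Benjamini-Hochberg adjusted p under 0.05 counted as a call. A log2 change is a difference on that scale and understates the change of dim genes. The fit was also made with the sample number as a replicate block, because same-numbered arrays deviated together. That was clearest between the hypoxic groups and weak for number 2 between normoxia and hypoxia, where normoxic number 2 arrays correlated about as much with hypoxic number 3, so each call made only with the block rests on that reading of the numbers.

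The series-wide checks were as follows. Adm, a hypoxia-induced peptide hormone gene, read 1482 to 2602 on the null arrays and 1662 to 2928 on the wild-type arrays, against 78.7 and 89.7 on the normoxic adeno-treated arrays. Both probe sets of Hif1a, the gene behind the null label, read no lower on the null arrays (850 to 1647 and 910.3 to 1689) than on the wild-type arrays (703 to 962 and 704 to 1096); where they lie relative to the deleted part is not known, so they check nothing about the label. Slc2a1, a glucose transporter gene induced in hypoxia, read 837 to 1297 on the null and 1666 to 1823 on the wild-type arrays, which did not overlap, against 168.8 and 195.2 on the normoxic adeno-treated arrays. Its null change against wild type was -0.68 (SE 0.18, limma adjusted p = 0.649, and 0.116 with the block). The sum over 16 of 17 listed hepatocyte markers ranged from 41342 to 50562 on null, 40040.3 to 56860 on wild-type, 48404 to 60675 on normoxic adeno-treated and 41965 to 47241 on normoxic untreated arrays, with none at 0. The hypoxic number 3 arrays stood apart. Their 18S ribosomal control probe sets had a mean log2 value of 12.18 on the null and 12.33 on the wild-type array, while the other 8 had 5.98 to 10.25. The sum over 15 of 16 stellate cell and fibroblast markers was 5423 and 5854 on those arrays, against 9217 to 17791 on the others, with none at 0. Endothelial (572.9 and 610.8, against 716.4 or more) and biliary sums (203.9 and 183.8, against 310 or more) were also lowest there. The macrophage sums, 1068.7 and 1045.7, lay just below the next array (1069.5). Lymphocyte and erythroid sums were not lowest there, and the hepatocyte sum was the highest of each hypoxic group (50562 and 56860).

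Across the 8 tested probe sets, Hmox1 was the one gene that passed, and only with the replicate block. In hypoxic wild type against normoxic adeno-treated cells, limma called 0 of the 8 without the block, beside 0.322% of all probe sets, and 1 of 8 and 7.93% of all had an unadjusted p under 0.05. With the block it called 1 of 8 there, beside 2.23% of all. In hypoxic null against hypoxic wild type it called 0 of 8, beside 0% of all, with 1 of 8 and 3.38% of all under 0.05 unadjusted. With the block it called 0 of 8 there, beside 0.134%, with 2 of 8 and 9.28% of all under 0.05 unadjusted. In hypoxic null against normoxic adeno-treated cells the count was 0 of 8, beside 0.429%, with 2 of 8 and 9.74% of all under 0.05 unadjusted, and 1 of 8 with the block, beside 5.78%. In normoxic adeno-treated against normoxic untreated cells it was 0 of 8, beside 0%, with 3 of 8 and 8.32% of all under 0.05 unadjusted. With the block limma called 0 of 8 there, beside 0.255%, with 4 of 8 and 17.9% of all under 0.05 unadjusted. Both comparisons of hypoxic cells with normoxia share the same 2 normoxic adeno-treated arrays. The median log2 change over the 8 probe sets was -0.06 for hypoxic wild type against normoxic adeno-treated, beside -0.02 over all 7453. It was -0.02 beside 0.02 for null against wild type, -0.13 beside 0.01 for null against normoxic adeno-treated, and 0.41 beside -0.01 for normoxic adeno-treated against normoxic untreated. The last median includes Mt1, Mt2 and the brighter Fth1 probe set, whose changes there depend on the scaling, as given below.

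**Figure D1:**
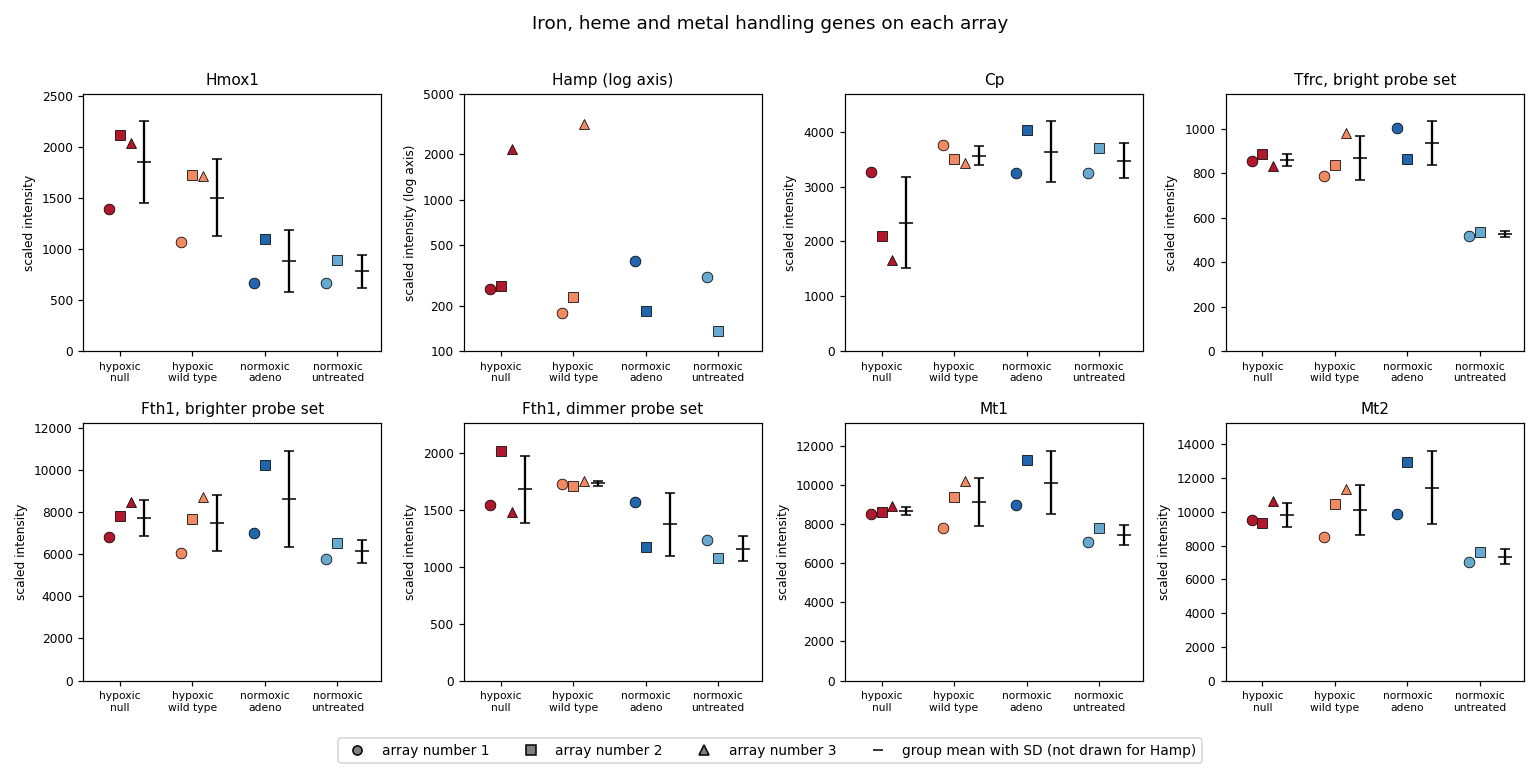
Scaled intensity (y axis, linear except for Hamp, which has a log axis) of the 8 tested probe sets on each array, by group. Symbols mark the sample number, and bars to the right of each group give the mean with SD, which is not drawn for Hamp. Hmox1 sits highest in the hypoxic groups, Tfrc lowest in normoxic untreated cells, and Hamp reads 2160.1 and 3153 on the hypoxic number 3 arrays against at most 391 elsewhere.

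For heme breakdown, Hmox1 encodes heme oxygenase 1, which opens the heme ring and releases iron, biliverdin and carbon monoxide. It read 1389, 2120.4 and 2040.0 on null arrays 1 to 3 and 1069, 1725 and 1719 on wild-type arrays 1 to 3. The normoxic adeno-treated arrays read 668 and 1099 and the normoxic untreated arrays 669 and 895. Every null array was above every normoxic array, while wild-type array 1 lay just below normoxic adeno-treated array 2. Within every number the null array was the highest and the wild-type array the next.

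Hypoxic null cells averaged 1849.8 ± 401 (SD, n = 3) and normoxic adeno-treated cells 884 ± 305 (SD, n = 2). Without the block that change was 1.08 on the log2 scale (SE 0.30, limma adjusted p = 0.268), and with the replicate block Hmox1 rose by 0.98 (SE 0.12, limma adjusted p = 0.00287). Hypoxic wild-type cells averaged 1505 ± 377 (SD, n = 3), 0.77 above normoxic adeno-treated cells without the block (SE 0.30, limma adjusted p = 0.538) and 0.68 above them with it (SE 0.12, limma adjusted p = 0.0240). The same-number ratios show what the block uses: in wild type over normoxic adeno-treated cells they were 1.60 and 1.57, and in null over normoxic adeno-treated cells 2.07 and 1.93. With all 4 normoxic arrays as the reference and the block, a setting chosen after seeing the data, the changes were 1.06 in null cells (limma adjusted p = 0.00109) and 0.75 in wild-type cells (limma adjusted p = 0.0116).

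The rise of Hmox1 in null cells with the block passed in 10 of 10 fits that left out 1 array each (limma adjusted p 0.0040 to 0.0343). The rise in wild-type cells passed in 4 of 10. It missed the threshold without normoxic adeno-treated array 1 (0.158) or 2 (0.148), without wild-type array 1 (0.0559), 2 (0.109) or 3 (0.0610), and without null array 3 (0.0626). Between null and wild type in hypoxia, Hmox1 differed by 0.31 (SE 0.27, limma adjusted p = 0.999, and 0.356 with the block). It was higher in null cells in 3 of 3 same-number pairs, by 0.38, 0.30 and 0.25 on the log2 scale. That difference did not pass, and the share of all probe sets with 1 sign in 3 of 3 pairs is not given here. Normoxic adeno-treated and untreated cells differed by 0.15 (SE 0.33, limma adjusted p = 0.934).

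Markers of other cell types were read beside Hmox1. With the block limma called 5.78% of all probe sets in null and 2.23% in wild-type cells against normoxic adeno-treated cells. Of 10 tested macrophage marker genes it called 1 in each of these comparisons, Cd68, a lysosomal protein gene. It read 220.1 to 254.1 on null and 127.5 to 225 on wild-type arrays, against 65.9 and 104.9 on normoxic adeno-treated arrays, without overlap between hypoxic and adeno-treated arrays. With the block Cd68 rose by 1.54 in null (SE 0.22, limma adjusted p = 0.00501) and by 1.03 in wild-type cells (SE 0.22, limma adjusted p = 0.0449). Without the block it passed in neither (limma adjusted p = 0.0925 and 0.371). The median block change over the 10 genes was 0.15 in null and 0.29 in wild-type cells, beside 0.03 and -0.0010 over all probe sets. Without the block 4 were positive and 6 negative in null cells, and 7 positive and 3 negative in wild-type cells. Cd14, another macrophage marker, went the other way in null cells, at 198.7 to 321.4 against 350.4 and 518 on normoxic adeno-treated arrays. The sum over 17 of 19 macrophage markers was 1069 to 1400.3 on null, 1046 to 1919.5 on wild-type and 1069.5 to 1381 on normoxic adeno-treated arrays, which overlapped, with none at 0. The 14 tested stellate cell and fibroblast markers had block medians of 0.37 in null and 0.50 in wild-type cells with 0 called. Without the block these were -0.04 and 0.05. Of 3 tested biliary markers limma called 1 in each comparison with the block, Krt19, which was higher (1.57 and 1.77). Without the block 2 of the 3 were positive and 1 negative in each. The Krt19 changes were then 0.59 and 0.78 (SE 1.21 each, limma adjusted p = 0.926 and 0.929). Krt7, another biliary marker, read 10.9 to 174.5 on null and 9 to 249.1 on wild-type arrays, against 122.3 and 68.6 on normoxic adeno-treated arrays. Krt19 read 131.2 (null) and 132.3 (wild type) on the hypoxic number 3 arrays, below both normoxic adeno-treated arrays (532.9 and 201). The part of these other cell types in the Hmox1 result was not tested.

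**Figure D2:**
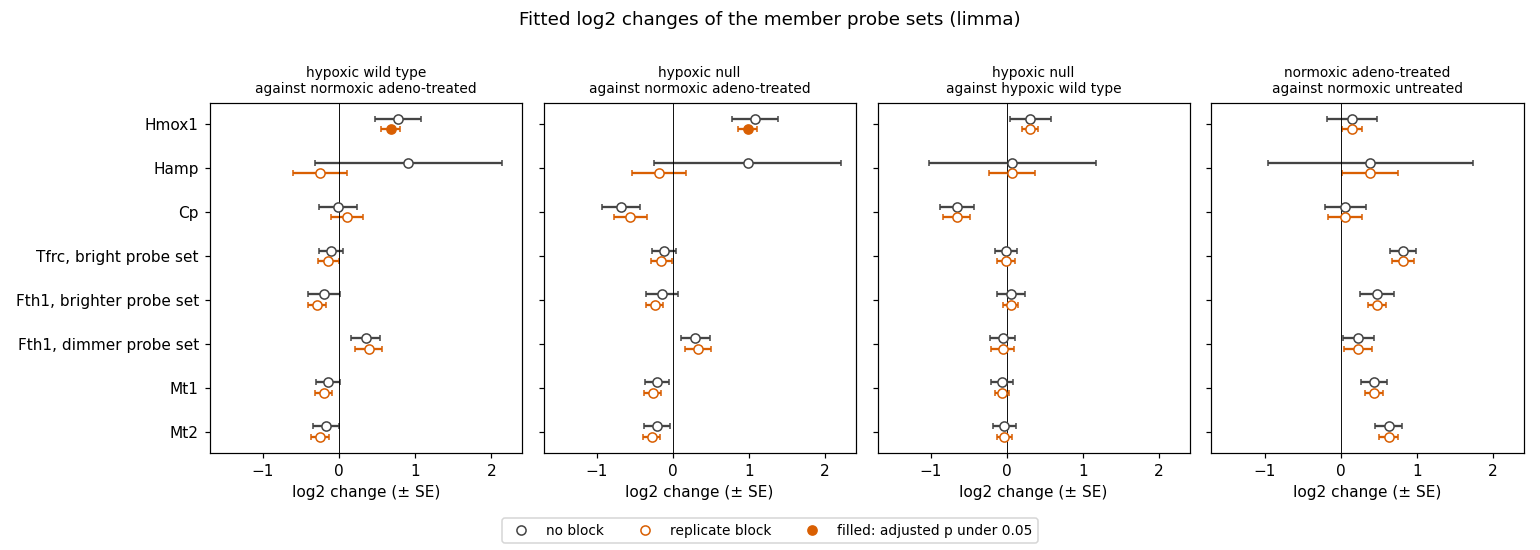
Log2 change of the 8 tested probe sets (x axis) in each of the 4 comparisons, with its SE, without and with the replicate block. The filled points, Hmox1 in both comparisons of hypoxic cells with normoxia, have an adjusted p under 0.05, and the bars of Hamp without the block are the widest, with an SE of 1.10 to 1.35.

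Iron export is represented by Cp, the plasma copper protein ceruloplasmin, which oxidises iron for binding to transferrin. It read 3273, 2095 and 1663 on null arrays 1 to 3, against 3753, 3504 and 3434 on wild-type arrays 1 to 3. The normoxic adeno-treated arrays read 3238 and 4024 and the normoxic untreated arrays 3242 and 3697. The null and wild-type groups did not overlap, and null arrays 2 and 3 were the lowest of all 10. Null array 1, in contrast, lay among the normoxic arrays.

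Null cells averaged 2344 ± 833 and wild-type cells 3564 ± 168 (SD, n = 3 each), a log2 change of -0.66 (SE 0.22, unadjusted p = 0.0144 in limma, adjusted p = 0.999, and 0.245 with the replicate block). Cp was lower in null cells in 3 of 3 same-number pairs, with log2 differences of -0.20, -0.74 and -1.04. The share of all probe sets with such agreement, or with groups that did not overlap, is not given here. Hepatocyte markers ran the same way as Cp: 14 of 16 tested genes were negative in null against wild type (median -0.19, beside 0.02 over all probe sets). F9, a clotting factor gene, was called lower with the block (-0.94, limma adjusted p = 0.0444). Against normoxic adeno-treated cells 15 of 16 were negative in null cells without the block (median -0.26 beside 0.01 over all), with 0 called. With the block their median was -0.43 beside 0.03 over all, and 6 were called lower. In that fit 5.78% of all probe sets were called in either direction. The part of this in the Cp values was not tested.

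The Cp difference between null and wild type passed with the block only when null array 1 was left out (-0.94, limma adjusted p = 0.0234). Against normoxic adeno-treated cells the null change was -0.68 (SE 0.25, limma adjusted p = 0.390, and 0.159 with the block), and without null array 1 it passed with the block (-0.91, limma adjusted p = 0.0127). Wild-type hypoxic cells differed from normoxic adeno-treated cells by -0.02 (SE 0.25, limma adjusted p = 0.993), with opposite signs in the 2 same-number pairs.

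Iron uptake is represented by Tfrc, the transferrin receptor that carries transferrin-bound iron into the cell. Its bright probe set read 855, 887 and 834 on null arrays 1 to 3 and 788, 839 and 981 on wild-type arrays 1 to 3. The normoxic adeno-treated arrays read 1004 and 864, against 518 and 535 on the normoxic untreated arrays. The 8 arrays of the other groups overlapped one another, and both untreated arrays lay below all of them.

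On the bright probe set Tfrc averaged 934 ± 99.1 in normoxic adeno-treated and 527 ± 11.8 in normoxic untreated cells (SD, n = 2 each). The log2 change was 0.82 (SE 0.17, unadjusted p = 0.000911 in limma, adjusted p = 0.498, and 0.0606 with the replicate block). It was as large under quantile normalization (0.82). With the block it passed when wild-type array 1 was left out (limma adjusted p = 0.0451) or null array 1 was (0.0469). Against normoxic adeno-treated cells its change was -0.10 in hypoxic wild type (SE 0.16, limma adjusted p = 0.927) and -0.12 in null cells (SE 0.16, limma adjusted p = 0.875). Null and wild type differed by -0.01 (SE 0.14, limma adjusted p = 0.999).

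The other Tfrc probe sets were dim. A second one of the main array, below the filter, read 20.3, 34.9 and 37.2 on null arrays, 2.9, 38.8 and 50.9 on wild-type arrays, 63.5 and 56.8 on normoxic adeno-treated arrays and 36.2 and 20.7 on normoxic untreated arrays. Like the bright one, it had both adeno-treated arrays above both untreated arrays. The control probe set for the 3′ end read 35.7 to 102.4 on null, 35.2 to 95.1 on wild-type, 46.2 and 47.8 on normoxic adeno-treated and 50.7 and 52.2 on normoxic untreated arrays. The control for the 5′ end read 6.7 to 34.8 over the hypoxic arrays, 23.9 and 27.0 on the normoxic adeno-treated and 15.2 and 17.6 on the normoxic untreated arrays. The control for the middle read 2.5 to 19.3 over the hypoxic and 2.8 to 14.1 over the normoxic arrays. In normoxia the 5′ control had both adeno-treated arrays above both untreated arrays, like the bright probe set, while the 3′ control had them below. None of these 4 passed when included in the fit.

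Iron storage is represented by Fth1, the ferritin heavy chain, which oxidises iron for storage in the ferritin shell. Its brighter probe set read 6791, 7819.7 and 8491 on null arrays 1 to 3 and 6049, 7683 and 8694 on wild-type arrays 1 to 3. The normoxic adeno-treated arrays read 7021 and 10230.2, against 5749 and 6503 on the normoxic untreated arrays. The hypoxic groups overlapped each other and the normoxic adeno-treated group, and in normoxia both adeno-treated arrays lay above both untreated arrays.

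The dimmer Fth1 probe set, whose name marks it as designed under relaxed rules, gave another order. It read 1543, 2017 and 1481 on null arrays, 1730.0, 1711 and 1752 on wild-type arrays, 1568 and 1173 on normoxic adeno-treated arrays and 1237 and 1079 on normoxic untreated arrays. Every hypoxic array was above 3 of the 4 normoxic arrays, and the wild-type group lay above all 4. Its wild-type change against normoxic adeno-treated cells was 0.35 (SE 0.19, limma adjusted p = 0.693, and 0.262 with the block), while that of the brighter probe set was -0.20 (SE 0.21, limma adjusted p = 0.865, and 0.206 with the block). Over the 10 arrays the 2 probe sets had a Pearson r of 0.07, so they disagree on the ferritin heavy chain, and neither passed in any comparison.

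Hamp encodes hepcidin, the liver hormone that closes ferroportin and so holds iron in cells. Stretches of its promoter known to carry the response to bone morphogenetic protein signals and to STAT3 lie close to its start. The 250 bases before that start are printed because the Hamp values that follow differ far more between arrays than between groups. They are chr7:30944030-30944279 of GRCm38.p6, from RefSeq, written 5′ to 3′ on the minus strand, with matches to GGCGCC and to TTCNNNGAA in capitals.
Hamp: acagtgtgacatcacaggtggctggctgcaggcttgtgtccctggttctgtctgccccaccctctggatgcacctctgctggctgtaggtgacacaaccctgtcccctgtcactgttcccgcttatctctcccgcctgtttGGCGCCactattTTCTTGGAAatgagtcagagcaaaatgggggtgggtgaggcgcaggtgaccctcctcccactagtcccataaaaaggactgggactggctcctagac

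GGCGCC, the core of the bone morphogenetic protein element of hepcidin, begins 109 bases before the start, and the STAT-type match begins 97 bases before it. Both were searched on both strands and do not overlap. GGCGCC was in 9.59% and TTCNNNGAA in 7.02% of 32851 mouse windows of the same length, so the letters alone mark nothing particular to Hamp. ACGTG and GCGTG, forms of the hypoxia response core, were not among the letters of this window, which says nothing about the factor.

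On the arrays, Hamp read 258, 268 and 2160.1 on null arrays 1 to 3 and 179, 226 and 3153 on wild-type arrays 1 to 3. The normoxic adeno-treated arrays read 391 and 183 and the normoxic untreated arrays 306 and 135. Both hypoxic number 3 arrays stood 5.52 (null) and 8.06 (wild type) times above the highest of the other 8, whose median was 242. Among those 8 the hypoxic and normoxic arrays overlapped.

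The change of Hamp in wild type against normoxic adeno-treated cells was 0.91 (SE 1.23, limma adjusted p = 0.911), -0.25 with the replicate block and -0.40 without the number 3 arrays. In null cells it was 0.98 (SE 1.23, limma adjusted p = 0.858), -0.18 with the block and -0.03 without the number 3 arrays. The sign of both changes therefore rests on those 2 arrays, and no normoxic array has the number 3. Null and wild type differed by 0.07 (SE 1.10, limma adjusted p = 0.999), with null higher in pairs 1 and 2 and lower in pair 3.

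The gap was rare among all probe sets. Both hypoxic number 3 arrays lay above all 8 others for 451 of the 7453 probe sets (6.05%). With 4.7 added to each value, the lower of the 2 exceeded the highest other array 5.47 times for Hamp, and only Cyp26a1, which encodes a retinoic acid-clearing enzyme, had a margin as large (8.90). The next, Serpina12, had 2.63. None of the other 7 member probe sets had both number 3 arrays above the rest. The 18S controls were highest on the same 2 arrays. The stellate cell and fibroblast, endothelial, biliary and macrophage sums were lowest there. The part of any of these in the Hamp values was not tested. In RNA from a bulk culture, fewer cells of a type and less RNA per cell cannot be told apart.

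**Figure D3:**
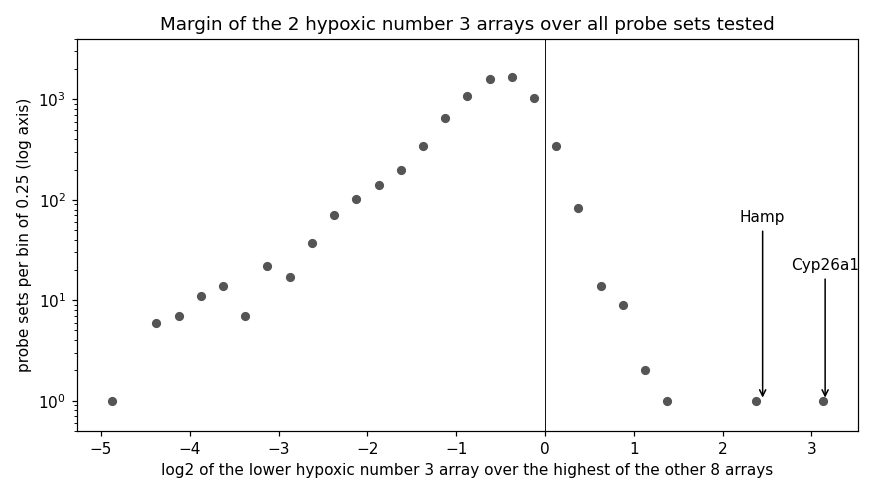
Number of probe sets (y axis, log axis) in each bin of the log2 margin (x axis), the lower of the 2 hypoxic number 3 arrays over the highest of the other 8, for the 7453 tested probe sets; arrows mark Hamp and Cyp26a1. Hamp, at 2.45, and Cyp26a1, at 3.15, lie apart at the right end, and a margin above 0 means that both number 3 arrays are above all others.

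Metallothioneins are small cysteine-rich proteins that bind zinc and copper, and their genes carry metal response elements read by the zinc-sensing factor MTF1. The 250 bases before the start of Mt2 are printed as background to the Mt1 and Mt2 values that follow. They are chr8:94172368-94172617 of GRCm38.p6, from RefSeq, written 5′ to 3′ on the plus strand, with matches to TGCACNC and TGCGCNC, forms of the metal response core, in capitals.
Mt2: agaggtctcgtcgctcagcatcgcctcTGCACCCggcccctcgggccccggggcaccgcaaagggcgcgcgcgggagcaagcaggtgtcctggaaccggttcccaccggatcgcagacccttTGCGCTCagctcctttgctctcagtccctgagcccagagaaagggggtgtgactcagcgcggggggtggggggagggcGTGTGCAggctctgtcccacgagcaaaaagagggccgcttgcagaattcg

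TGCACNC begins 223 bases before the start on the plus strand and lies 50 to 44 bases before it on the minus strand, and TGCGCNC begins 128 bases before it. The minus-strand match overlaps a GCGTG that lies 52 to 48 bases before the start. The Mt1 window lies at chr8:94178839-94179088, while the listed gene starts at 94178883. Most of that window is therefore inside the gene, and it says little about the bases before the listed start. It holds 1 TGCACNC, beginning 23 bases from its end, with 1 ACGTG and 1 GCGTG. Of 32851 windows, 10.4% held TGCACNC, 12.51% TGCGCNC, 16.57% ACGTG and 28.16% GCGTG, on either strand.

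Mt1 read 8527, 8607 and 8917 on null arrays 1 to 3 and 7794, 9399 and 10214 on wild-type arrays 1 to 3. The normoxic adeno-treated arrays read 8970.1 and 11265, against 7084 and 7790.3 on the normoxic untreated arrays. All 3 null arrays were below both adeno-treated arrays, and both untreated arrays were below every other array. Mt2 read 9523, 9314 and 10618 on null arrays, 8502, 10478 and 11341 on wild-type arrays, 9889 and 12969 on normoxic adeno-treated arrays and 7036 and 7645 on normoxic untreated arrays. Its untreated arrays were also the lowest, and Mt1 and Mt2 had a Pearson r of 0.97 over the 10 arrays. Mt2 with Alb had 0.99 and Mt1 with Gstm3 0.98, so running together was not particular to the metallothioneins.

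In normoxic adeno-treated against untreated cells the change was 0.63 for Mt2 (SE 0.18, limma adjusted p = 0.498, and 0.0678 with the replicate block) and 0.44 for Mt1 (SE 0.17, limma adjusted p = 0.548, and 0.103 with the block). With the block, Mt2 passed when null array 1 was left out (limma adjusted p = 0.0388). Under quantile normalization the changes were 0.02 for Mt2 and -0.17 for Mt1, so the size of the first and the sign of the second depend on the scaling. Hypoxia against normoxic adeno-treated cells gave -0.17 for Mt2 and -0.15 for Mt1 in wild type, and -0.21 for each in null cells. None passed, and null and wild type differed by -0.03 for Mt2 and -0.06 for Mt1.

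Mt1, Mt2 and the brighter Fth1 probe set are near the top of the array's scale. All 3, with Alb, the albumin gene, were highest on normoxic adeno-treated array 2 and lowest on normoxic untreated array 1. The brightest value of an array ran the same way, being 14232 on normoxic adeno-treated array 2 and 8039 on normoxic untreated array 1, where the 99th percentiles were 4812 and 3749. Under quantile normalization the Fth1 change in normoxic adeno-treated against untreated cells was -0.01, against 0.47 with the deposited scaling. The part of the arrays' bright range in these values was not tested beyond that setting.

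**Figure D4:**
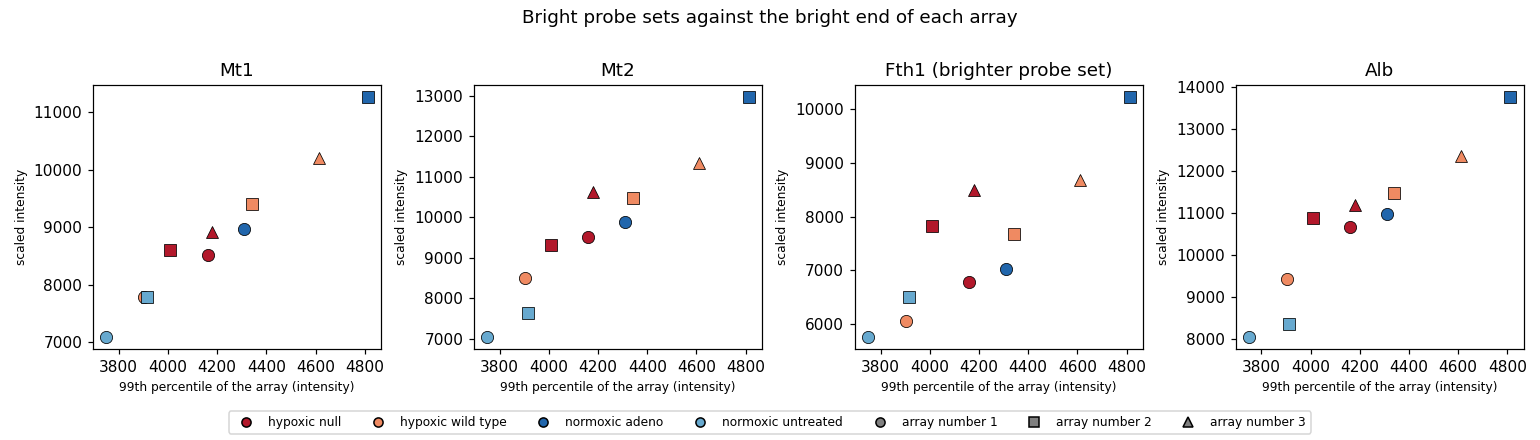
Scaled intensity (y axis) of Mt1, Mt2, the brighter Fth1 probe set and Alb on each array against the 99th percentile of that array (x axis). All 4 are highest on the array with the highest percentile (4812) and lowest on the array with the lowest (3749).

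Beyond the members, 7 lists of iron, heme, zinc, copper and iron-sulfur genes were read from the same fit. They hold 78 genes besides the members with a probe set, of which 66 were tested on 80 probe sets. Without the block limma called 0 of the 80 in each comparison, while 6, 6, 4 and 11 had an unadjusted p under 0.05 in wild type and null against normoxic adeno-treated cells, null against wild type, and normoxic adeno-treated against untreated cells. Those are 7.5%, 7.5%, 5% and 13.8% of the 80, beside 7.93%, 9.74%, 3.38% and 8.32% of all probe sets. With the block it called 1, 1, 0 and 1 of the 80, and 16, 17, 5 and 17 were under 0.05 unadjusted. These are 20%, 21.2%, 6.25% and 21.2% of the 80, beside 19.1%, 22.3%, 9.28% and 17.9% of all, so the shares lie near the background. The called gene was Smad4 each time. The median log2 change over the 80 was -0.12, -0.04, 0.03 and -0.07 in those comparisons.

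Smad4 encodes the shared SMAD through which bone morphogenetic protein signals reach Hamp. It read 459, 242 and 358 on null arrays, 421, 286 and 413 on wild-type arrays, 202 and 159.9 on normoxic adeno-treated arrays and 457.5 and 470.4 on normoxic untreated arrays. The adeno-treated arrays were the lowest of all 10, below each hypoxic array and far below the untreated ones. With the block Smad4 fell by 1.34 in normoxic adeno-treated against untreated cells (SE 0.21, limma adjusted p = 0.0452, and 0.498 without the block). With the block it was 0.96 higher in wild-type cells (SE 0.20, limma adjusted p = 0.0449, and 0.293 without it) and 0.85 higher in null cells (SE 0.20, limma adjusted p = 0.0417, and 0.312 without it), both against the same adeno-treated arrays. Against all 4 normoxic arrays with the block it was 0.28 (limma adjusted p = 0.737) in wild-type and 0.18 (0.813) in null cells. The calls passed in 4, 4 and 3 of 10 fits that left out 1 array, for normoxic adeno-treated against untreated, wild type and null cells, with adjusted p up to 0.467, 0.216 and 0.204. Each of the 3 missed the threshold without normoxic adeno-treated array 1 or 2, without wild-type array 2 or 3 and without null array 3. The first also missed it without untreated array 2, that of wild type without wild-type array 1, and that of null cells without null array 1 or 2. Without the number 3 arrays the adjusted p with the block were 0.0770, 0.0914 and 0.0732.

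Heme synthesis genes shared a sign in some comparisons without passing. In hypoxic wild type against normoxic adeno-treated cells 6 of 6 tested genes had a negative change on their brightest probe set (median -0.33, beside -0.02 over all probe sets), and in normoxic adeno-treated against untreated cells 6 of 6 had a positive one (median 0.30, beside -0.01). In null against normoxic adeno-treated cells 5 were negative and 1 positive (median -0.22, beside 0.01). All these counts share the adeno-treated arrays. Between null and wild type in hypoxia 4 were positive and 2 negative. Uros, uroporphyrinogen III synthase, had a null change of -0.76 against normoxic adeno-treated cells (SE 0.21, limma adjusted p = 0.264, and 0.0672 with the block). Ppox, protoporphyrinogen oxidase, was the heme synthesis gene of smallest p between null and wild type in hypoxia, at 0.63 (SE 0.24, limma adjusted p = 0.999).

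In heme breakdown and scavenging, 11 genes were tested and Hmox1 alone passed. Slc48a1, which carries heme out of endosomes, read 271, 259 and 205 on wild-type arrays. It read 365 and 422 on normoxic adeno-treated and 279.8 and 239.3 on normoxic untreated arrays. The wild-type arrays overlapped the untreated ones but not the adeno-treated ones, against which the change was -0.68 (SE 0.21, limma adjusted p = 0.385, and 0.0955 with the block). In normoxia, adeno-treated cells were 0.59 above untreated cells (SE 0.23, limma adjusted p = 0.548, and 0.109 with the block). Hp, the hemoglobin scavenger haptoglobin, was 0.65 higher in normoxic adeno-treated than in untreated cells (SE 0.19, limma adjusted p = 0.498, and 0.0606 with the block). Like Alb, it read lowest on normoxic untreated array 1 (6158.5) and highest on normoxic adeno-treated array 2 (11586.2). The part of the arrays' bright range in the Hp change was not tested. Nfe2l2, the NRF2 factor known to drive Hmox1, did not rise with it in both comparisons with normoxic adeno-treated cells. Its change there was -0.27 in wild type (SE 0.16, limma adjusted p = 0.730) and 0.06 in null cells (SE 0.16, limma adjusted p = 0.948). Nfe2l2 was 0.33 higher in null than in wild-type cells (SE 0.14, limma adjusted p = 0.999). In normoxic adeno-treated against untreated cells it was -0.50 (SE 0.17, limma adjusted p = 0.519).

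Among 18 tested zinc and copper genes none passed. The brighter probe set of Slc31a1, the copper importer CTR1, read 378, 377 and 336 on null arrays and 379.5, 373 and 321 on wild-type arrays, against 564 and 529.7 on normoxic adeno-treated arrays. All hypoxic arrays were below all normoxic ones. Its change was -0.58 in null cells (SE 0.16, limma adjusted p = 0.258, and 0.0521 with the block) and -0.61 in wild-type cells (SE 0.16, limma adjusted p = 0.277, and 0.0658 with the block), while its second probe set gave -0.30 and -0.14. Slc30a1, the zinc exporter ZnT1, was 1.21 in null and 1.14 in wild-type cells against normoxic adeno-treated cells (SE 0.44 each, limma adjusted p = 0.396 and 0.536). Mt3, a further metallothionein, was 0.78 in normoxic adeno-treated against untreated cells (SE 0.17, limma adjusted p = 0.498, and 0.0627 with the block). In that comparison the limma p of Mt3, at 0.00107 unadjusted, was close to that of Tfrc.

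Among 9 tested iron-sulfur assembly genes, Fdx1, a ferredoxin, read 1906, 1380.1 and 1769 on null arrays, against 2811, 2309.9 and 3000.3 on wild-type arrays. The groups did not overlap, and the change was -0.69 (SE 0.17, limma adjusted p = 0.551, and 0.0641 with the block). In the hepcidin list 12 of 14 tested genes were negative in normoxic adeno-treated against untreated cells (median -0.23, beside -0.01 over all probe sets). Among them the activin receptor gene Acvr2a was -1.10 (SE 0.31, limma adjusted p = 0.498, and 0.0826 with the block). The lists of iron uptake and transport and of iron storage and iron regulatory proteins had 9 and 6 tested genes, members included. Apart from the members, none of them was among the 4 list genes of smallest p in a comparison.

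**Figure D5:**
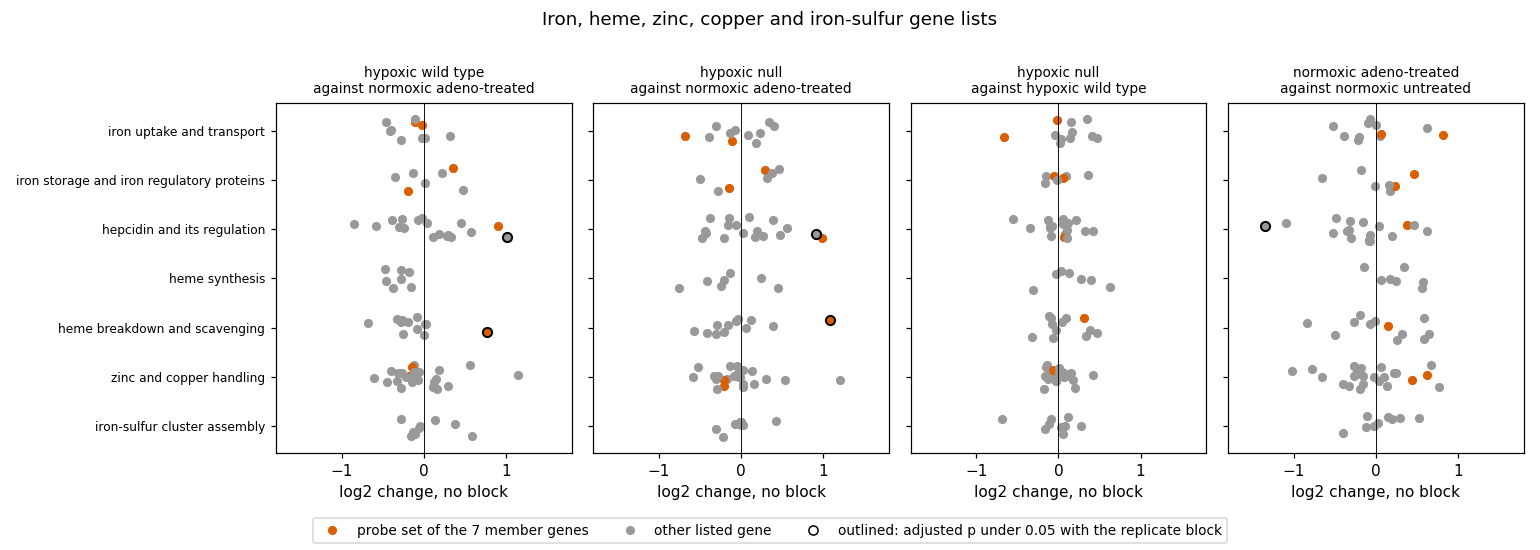
Log2 change without the block (x axis) of each tested probe set of the 7 gene lists (rows), in each of the 4 comparisons; members are orange, and outlines mark an adjusted p under 0.05 with the replicate block. The outlined points are Hmox1 and Smad4.

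The genes closest in pattern to each member were read as Pearson r of log2 values over the 10 arrays, which share groups and sample numbers. For Hmox1 they were Sdc3 (0.97), Rpia (0.95) and Klf10 (0.95), and without the number 3 arrays these were 0.97, 0.95 and 0.94. For Cp they were Daglb (0.93), Nrd1 (0.91) and Flot1 (0.90), and for Tfrc Dxo (0.93), Acy3 (0.89) and Kmt5c (0.88). For Hamp they were Car5a (0.94), Cyp26a1 (0.94) and Apex1 (0.94), and these were 0.70, 0.19 and 0.68 over the 8 arrays without number 3. For the brighter Fth1 probe set they were Atp5l (0.96), Gstm3 (0.94) and Gstp1 (0.94). Mt1 was closest to Gstm3 (0.98), Apoa1 (0.97) and Alb (0.96), and Mt2 to Alb (0.99), Gstm3 (0.98) and Eef1a1 (0.98).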

How the data were processed

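The members, lists and comparisons were chosen with earlier results of these data known. Each of the 10 mouse hepatocyte RNA samples went on 1 array of 12488 probe sets. The deposited values are intensities on a linear scale. The authors had scaled them, since each array's mean of values within percentiles 2 to 98 was 199.6 to 199.96. The sources used here do not say how the scans became these values. The number of arrays limits the precision, and detection calls were not used here.

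Values were kept as scaled and taken to log2 after adding 4.7, their percentile 10. The 66 control probe sets and those below the 40th percentile of mean log2 intensity were left out, leaving 7453. The platform annotation gives 1 symbol for 10855 probe sets, several for 396 and none for 1237, and 10839 of the 10855 matched RefSeq genes of GRCm38.p6. The probe set of Ftl1 carries several symbols and was not used.

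Probe sets were fitted with limma 3.58.1 in R 4.3.3 (4 group means, all 10 arrays, eBayes with a trend on intensity, leaving 6 residual degrees of freedom), 2-sided, with Benjamini-Hochberg adjustment over all 7453, and the fit was tested on simulated data. Deviations from the group means correlated above 0.1 in 13 of 13 pairs of arrays that share a number (0.106 to 0.678), and in 4 of 24 pairs that do not. All 4 join normoxic number 2 to hypoxic number 3 (0.149 to 0.251), a range that overlaps that of normoxic 2 with hypoxic 2 (0.106 to 0.177). In the groups of 2 the deviations mirror each other, so the 13 pairs are not independent, and the 3 hypoxic pairs (0.542 to 0.678) are the clearest. The numbers of the labels were therefore read as pairing the samples, and results that change are also given from a fit in which the number is a replicate block, with 4 residual degrees of freedom.

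Named were every member probe set, each list gene past the threshold with or without the block, the 4 list genes of smallest p in each comparison, and the 3 genes closest in Pearson r to each member. Alternatives were another offset, filter, normalization and variance trend, the replicate block, the number 3 arrays left out, all 4 normoxic arrays as the reference, and each array left out in turn. Promoter windows were read from RefSeq for 6 members and searched on both strands.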

Additional observations from a re-analysis of the deposited data

How the results depend on the processing

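The fits with the block that left out 1 array or took all 4 normoxic arrays as the reference, and the fit with control probe sets, were chosen after seeing the data. Of 32 member results, 22 changed sign in at least 1 setting, 58 times in all, and 10 in none. No changed sign passed the threshold (smallest limma adjusted p 0.586), and apart from Hamp the largest such result was 0.47. The cause was not tested.

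Over 4 comparisons (wild type against normoxic adeno-treated, null against wild type, null against normoxic adeno-treated, then adeno-treated against untreated in normoxia) limma called 24, 0, 32 and 0 of all probe sets. With the replicate block it called 166, 10, 431 and 19, and with the block but no number 3 arrays 95, 1, 228 and 3. Without number 3 and without the block the last 3 counts were 1, 17 and 1. The replicate block gave 1 member call in wild type and 1 in null cells against normoxic adeno-treated cells, and 1 in null cells also without number 3. Leaving out 1 array gave 3 to 30, 0 to 0, 3 to 28 and 0 to 0 calls without the block and 23 to 218, 1 to 27, 50 to 451 and 1 to 81 with it. Member calls were then 0 to 0 without the block and 0 to 1, 0 to 1, 1 to 2 and 0 to 2 with it.

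Against all 4 normoxic arrays the null changes were 0.091 for the brighter Fth1 probe set, 0.0068 for Mt1, 0.11 for Mt2 and 0.29 for Tfrc. The wild-type changes were 0.011 for Cp, 0.038 for that Fth1 probe set, 0.071 for Mt1, 0.14 for Mt2 and 0.30 for Tfrc. Quantile normalization gave 0.00034 for Tfrc in null against wild type and 0.015 for Mt2 in null against normoxic adeno-treated cells. It gave 0.088 for Cp, 0.023 for Mt1 and 0.043 for Mt2 in wild type, and -0.19 for Cp, -0.0082 for the brighter Fth1 probe set and -0.17 for Mt1 in normoxic adeno-treated against untreated cells. With the replicate block Hamp was -0.18 in null and -0.25 in wild-type cells, and Cp 0.10 in wild-type cells. Without number 3, null against wild type gave 0.036 for the dimmer Fth1 probe set, 0.0014 for Mt1 and 0.10 for Tfrc. Hamp was then -0.026 in null and -0.40 in wild-type cells, and Cp 0.0066 in wild-type cells.

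Leaving out 1 array, null against wild type ranged from -0.19 to 0.027 (dimmer Fth1), -0.092 to 0.17 (brighter Fth1), -0.94 to 1.38 (Hamp), -0.17 to 0.021 (Mt1), -0.15 to 0.055 (Mt2) and -0.080 to 0.077 (Tfrc). Null against normoxic adeno-treated cells gave -0.42 to 0.13 (brighter Fth1) and -0.026 to 1.52 (Hamp). Wild type gave -0.18 to 0.14 (Cp), -0.47 to 0.074 (brighter Fth1), -0.40 to 1.65 (Hamp), -0.31 to 0.017 (Mt1), -0.37 to 0.021 (Mt2) and -0.21 to 0.0035 (Tfrc). Normoxic adeno-treated against untreated cells gave -0.10 to 0.22 (Cp), -0.19 to 0.96 (Hamp) and -0.21 to 0.50 (Hmox1).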
